A study of Mus musculus with 8 samples.

Results

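Alternative activation is the program that the cytokines IL-4 and IL-13 induce in mouse macrophages and related myeloid cells. Its classic marker genes were followed here as a set of 7 members, Il4ra, Arg1, Chil3, Retnla, Ccl24, Mrc1 and Mgl2, chosen as rows of the count table whose Ensembl identifier maps to the symbol. All 7 were found among the 55487 identifiers of the table, and all 7 passed the filter on low counts that left 15411 tested genes.

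The study asked how ferroptotic cargo changes the transcriptome of dendritic cells. Wild-type bone marrow cells of C57BL/6J mice (females of 6 to 8 weeks per the study's methods) were grown in GM-CSF at 20 ng/ml into bone marrow-derived dendritic cells, for 10 days per the labels. Both groups hold 4 libraries of such cells. The first, BMDC, was untreated. The second, BMDC-fer, was co-cultured for 4 h with Jurkat cells, an established human T-cell leukemia line, in which ML162 at 0.5 µM had induced ferroptosis over 14 h. Ferroptosis is a death by oxidation of membrane lipids, which ML162 triggers by blocking the lipid peroxidase GPX4. Only cells that had engulfed this cargo were sorted into BMDC-fer. No sort is stated for BMDC and no uptake of another kind of dead cell was part of the series, so exposure, selection for uptake and sorting cannot be told apart. Such cultures are mixed, with about 80% CD11c-positive cells per the study's methods, and in bulk RNA fewer cells of a type and less RNA per cell cannot be told apart.

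As background, IL-4 binds a receptor whose chain IL-4Rα is encoded by Il4ra and signals through JAK kinases to the transcription factor STAT6. STAT6 then switches on genes for arginase-1 (Arg1), the chitinase-like protein Ym1 (Chil3), the secreted cysteine-rich protein RELMα (Retnla), the eosinophil-attracting chemokine eotaxin-2 (Ccl24) and the carbohydrate-binding receptors CD206 (Mrc1) and CD301b (Mgl2). In cultures grown with GM-CSF, several of these genes are also expressed without added IL-4, and Mgl2 is a known marker of a dendritic cell subset.

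Promoter sequences from RefSeq (GRCm38.p6) were found for 5 of the members, Chil3, Retnla, Mrc1, Mgl2 and Il4ra. STAT factors bind the letters TTC and GAA set apart by a short spacer, and STAT6 favours a spacer of 4 bases. For each of these 5 genes the whole 250 bases before the RefSeq start were searched on both strands. The stretches of Retnla (chr16:48842359-48842550, plus strand) and Chil3 (chr3:106167565-106167814, minus strand) are shown because they hold the only STAT-type matches, in capitals, and that of Mgl2 (chr11:70130107-70130328, plus strand) because this gene had the clearest fall in the comparison with BMDC-fer. Each is written 5′ to 3′ in the direction of its gene. The printed stretches begin with the searched window but stop before the GENCODE start of the gene, which lies 58 bases before the RefSeq start in Retnla and 28 bases before it in Mgl2, so they are shorter than the window searched, while in Chil3 both starts coincide.
Retnla: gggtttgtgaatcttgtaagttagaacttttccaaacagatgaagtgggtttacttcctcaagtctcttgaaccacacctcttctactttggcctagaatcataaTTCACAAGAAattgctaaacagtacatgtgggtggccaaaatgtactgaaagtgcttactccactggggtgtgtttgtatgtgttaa
Chil3: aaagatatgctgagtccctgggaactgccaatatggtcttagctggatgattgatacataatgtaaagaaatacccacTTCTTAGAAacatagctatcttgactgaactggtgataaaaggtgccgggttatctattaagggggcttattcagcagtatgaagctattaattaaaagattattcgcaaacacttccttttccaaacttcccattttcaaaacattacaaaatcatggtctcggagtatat
Mgl2: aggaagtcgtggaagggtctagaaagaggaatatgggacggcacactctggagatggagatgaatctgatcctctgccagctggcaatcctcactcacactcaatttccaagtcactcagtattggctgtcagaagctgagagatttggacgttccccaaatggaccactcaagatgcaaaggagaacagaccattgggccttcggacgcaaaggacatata

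In Retnla, the match with the spacer of 4 bases spans bases 106 to 115 of the printed stretch, counted from its 5′ end, or 145 to 136 bases before the RefSeq start. A C/EBP-type match (TTGCNNAA) spans bases 117 to 124 and a PU.1-type match (GAGGAA, on the opposite strand) bases 55 to 60 of this stretch, without overlap. In Chil3, the match had a spacer of 3 bases (TTCNNNGAA) and spans bases 79 to 87 of the printed stretch, 172 to 164 bases before the RefSeq start. Mgl2 held 1 PU.1-type match, Mrc1 held 3, and Il4ra held no match to any of the 4 motifs in its 250 bases. Among 32851 promoter windows of this length, 5.85% held the STAT6-type match, 7.02% the other STAT-type match, 9.56% the C/EBP-type match and 23.3% the PU.1-type match. These are matches of letters and no measure of binding.

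Total mouse counts per library lay between 39326672 and 50532209, and 3 counts, taken as the floor, correspond to 0.0594 to 0.0763 CPM (counts scaled to library size). All other CPM values here use library sizes scaled by TMM. This floor reflects counting alone, because PCR copies were not marked by molecular identifiers. Every member lay above it in every library, and the lowest member count was 19, of Ccl24 in BMDC replicate 4. Across the transcriptome, the libraries of replicates 1 and 2 separated from those of replicates 3 and 4, with and without cargo. The labels name no batch, and the replicates are described as independently collected samples, so these sets of replicates are called replicate pairs here and values are given within each. Fitted values within a pair come from a joint edgeR fit of all 8 libraries, in which both pairs share the estimated spread. Where only 1 pair was fitted, this is said. Over all 15411 genes, 1445 were called between BMDC-fer and BMDC (9.38%) by edgeR's quasi-likelihood test. A call needed a Benjamini-Hochberg adjusted p of at most 0.05 together with a log2 fold change of at least 0.58 in size.

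Beside that share, 0 of the 7 members were called, which in so small a set is near it. None reached an unadjusted p under 0.05 in edgeR, and DESeq2 likewise called 0, with 0 at an unadjusted p under 0.05. By fitted value 3 members were higher and 4 lower in BMDC-fer, with a median log2 fold change of -0.02 beside 0.00069 over all tested genes. For none of the 7 did the groups of 4 libraries separate without overlap, beside 22.9% of all tested genes in either direction. In a set of 7 genes this too is no clear departure from the share over all genes. With the replicate number as a block, Mgl2 fell as the only member called, beside 8.13% of all tested genes that fell under this fit. Mgl2 was lower in BMDC-fer at 4 of 4 replicate numbers and Ccl24 higher at 4 of 4, while Arg1, Chil3 and Il4ra were higher at 2 of 4 and Retnla and Mrc1 at 3 of 4.

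**Figure D1:**
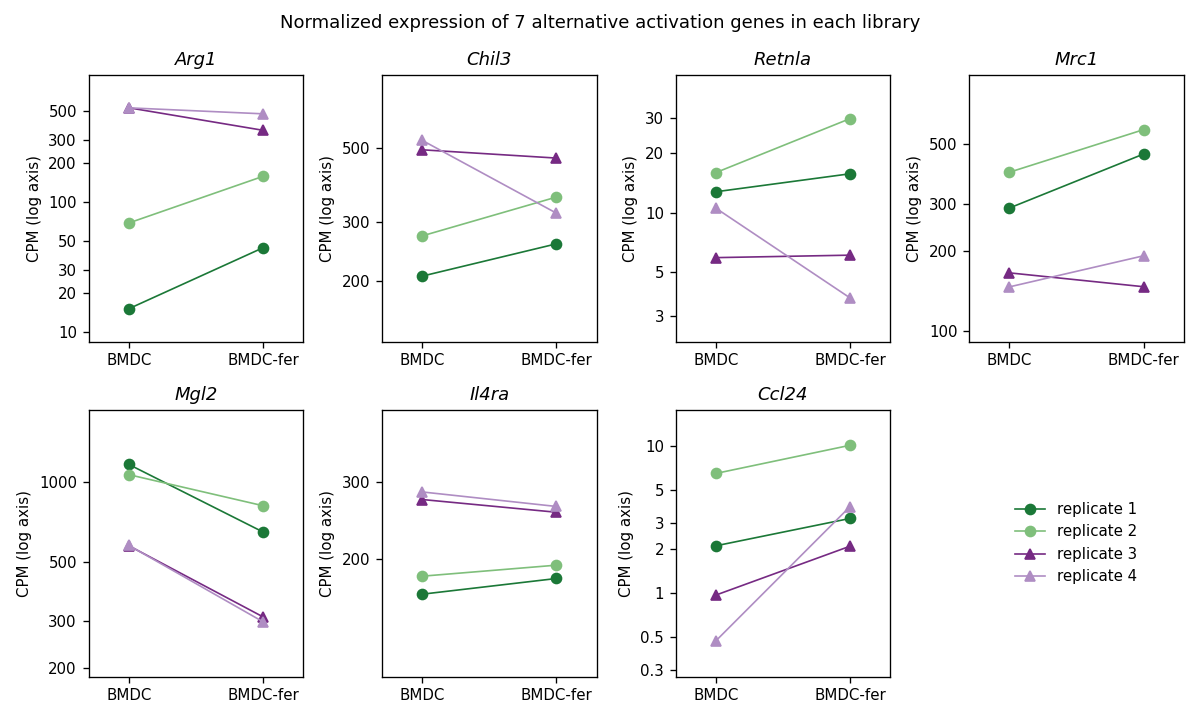
Normalized expression (CPM, log axis) of the 7 genes in each library of BMDC and BMDC-fer. Lines join libraries of the same replicate number, circles are replicates 1 and 2 and triangles replicates 3 and 4. Every line falls for Mgl2 and rises for Ccl24, and the lowest and highest Arg1 values differ 34.9-fold.

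Il4ra, the receptor chain through which IL-4 and IL-13 both act, lies at chr7:125552120-125579474 on the plus strand (ENSMUSG00000030748; GENCODE M21 gene model, GRCm38). Its levels were 167, 183, 274 and 285 CPM in BMDC replicates 1 to 4, and 181, 194, 256 and 264 CPM in BMDC-fer replicates 1 to 4. The groups overlapped throughout, and replicates 3 and 4 were above replicates 1 and 2 in both. The log2 fold change was -0.02 ± 0.21 (SE; n = 4 libraries per group; edgeR adjusted p = 0.956). Within replicates 1 and 2 it was 0.10 ± 0.08, and within replicates 3 and 4 it was -0.10 ± 0.08. Of all members Il4ra spanned the narrowest range, with a highest over lowest level of 1.71. Gm44876, an antisense gene, overlaps Il4ra, and whether counting used strand is not given in the sources used here, so reads of the 2 genes may not be separated.

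Arg1 encodes arginase-1, which splits arginine into urea and ornithine and is the best known enzyme of alternative activation (chr10:24915221-24927484, minus strand, ENSMUSG00000019987). In BMDC replicates 1 to 4 it stood at 15.2, 69.1, 529.9 and 529.3 CPM. In BMDC-fer replicates 1 to 4 it stood at 44.5, 157, 356 and 476 CPM. Low values came from replicates 1 and 2 and high values from replicates 3 and 4 of both groups, with wide overlap between groups. The pooled log2 fold change was -0.15 ± 1.03 (SE; edgeR adjusted p = 0.937). Within replicates 1 and 2 the fitted value was 1.26 ± 0.66 (edgeR adjusted p = 0.162), with both BMDC-fer libraries above their same-numbered BMDC library. Within replicates 3 and 4 it was -0.35 ± 0.64 (adjusted p = 0.677), with both below. These values come from the joint fit, in which both pairs share the estimated spread. Where only replicates 3 and 4 were fitted, Arg1 was at -0.335 (edgeR adjusted p = 0.0329), too small in size for a call. Where only replicates 1 and 2 were fitted, Arg1 was at 1.26 (edgeR adjusted p = 0.258). With the replicate block the pooled value turned to 0.50 ± 0.38 (adjusted p = 0.398).

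Chil3 encodes Ym1, a secreted chitinase-like protein without enzyme activity (chr3:106147554-106167564, minus strand, ENSMUSG00000040809). BMDC replicates 1 to 4 held 207, 273, 495 and 528 CPM, and BMDC-fer replicates 1 to 4 held 259, 357, 467 and 319.6 CPM. All 4 BMDC-fer values lay inside the range of the BMDC values. The log2 fold change was -0.10 ± 0.32 (edgeR adjusted p = 0.856), 0.36 ± 0.21 within replicates 1 and 2 and -0.38 ± 0.21 within replicates 3 and 4. Of its longest transcript, 29.4% of 50-base stretches also occur in Chil4 or Gm6522. Chil4 itself held at most 7 counts in any library.

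Retnla encodes RELMα, a secreted protein tied to type 2 immunity and tissue repair (chr16:48842551-48844461, plus strand, ENSMUSG00000061100), and it carries the STAT6-type match shown above. It was low throughout. BMDC replicates 1 to 4 had 12.8, 16.0, 5.94 and 10.6 CPM, and BMDC-fer replicates 1 to 4 had 15.7, 29.9, 6.11 and 3.72 CPM. The highest value belonged to BMDC-fer replicate 2 and the lowest to BMDC-fer replicate 4, so the BMDC-fer libraries spread across the whole BMDC range. The log2 fold change was 0.29 ± 0.60 (edgeR adjusted p = 0.77). Under the replicate block it was -0.03 ± 0.38. Within replicates 1 and 2 it was 0.66 ± 0.35 (adjusted p = 0.158), and within replicates 3 and 4 it was -0.74 ± 0.38 (adjusted p = 0.13).

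Ccl24, the chemokine that draws eosinophils through the receptor CCR3, was the lowest of the set (chr5:135569937-135573049, minus strand, ENSMUSG00000004814). Its levels were 2.10, 6.51, 0.97 and 0.474 CPM in BMDC replicates 1 to 4. In BMDC-fer replicates 1 to 4 they were 3.22, 10.1, 2.08 and 3.87 CPM. Each BMDC-fer library was above its same-numbered BMDC library, although the groups overlapped, since BMDC replicate 2 was above 3 of the 4 BMDC-fer libraries. The log2 fold change was 0.94 ± 0.79 (edgeR adjusted p = 0.455). Under the replicate block it was 1.25 ± 0.43 (adjusted p = 0.0981). It was 0.62 ± 0.61 within replicates 1 and 2 (adjusted p = 0.454) and passed the threshold within replicates 3 and 4, at 2.03 ± 0.74 (adjusted p = 0.0455). The BMDC values of that pair rest on 41 and 19 counts.

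Mrc1 encodes CD206, the mannose receptor, which takes up glycoproteins with terminal mannose (chr2:14229392-14332057, plus strand, ENSMUSG00000026712). BMDC replicates 1 to 4 were at 289, 393, 165 and 146 CPM, and BMDC-fer replicates 1 to 4 were at 460.2, 568, 147 and 191 CPM. Here replicates 1 and 2 were the high libraries in both groups, the reverse of Arg1. The log2 fold change was 0.46 ± 0.48 (edgeR adjusted p = 0.551). Mrc1 rose within replicates 1 and 2, by 0.59 ± 0.18 on the log2 scale (adjusted p = 0.0257). Within replicates 3 and 4 the value was 0.12 ± 0.18 (adjusted p = 0.608), with BMDC-fer replicate 3 below and replicate 4 above the BMDC library of the same number. The microRNA gene Mir511 lies inside Mrc1 on the same strand.

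Mgl2 encodes CD301b, a galactose-type lectin of dendritic cells and alternatively activated macrophages (chr11:70130329-70137550, plus strand, ENSMUSG00000040950). In BMDC replicates 1 to 4 it stood at 1160, 1062, 575 and 577 CPM. In BMDC-fer replicates 1 to 4 it stood at 648, 812, 311 and 298 CPM. Each BMDC-fer library was below the BMDC library of its number, and the groups overlapped because BMDC replicates 3 and 4 were below BMDC-fer replicates 1 and 2. Without the block the log2 fold change was -0.71 ± 0.39 (edgeR adjusted p = 0.255; two-sided exact permutation p = 0.171, where the smallest possible p is 0.0286). With the replicate block Mgl2 fell by 0.77 ± 0.13 on the log2 scale (adjusted p = 0.0178). It fell within replicates 1 and 2 (-0.61 ± 0.11, adjusted p = 0.00281) and within replicates 3 and 4 (-0.92 ± 0.11, adjusted p = 0.000192). Of its longest transcript, 16.5% of 50-base stretches occur in other genes, its close relative Clec10a among them, so part of its reads may have been split or left out by the authors' counting.

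**Figure D2:**
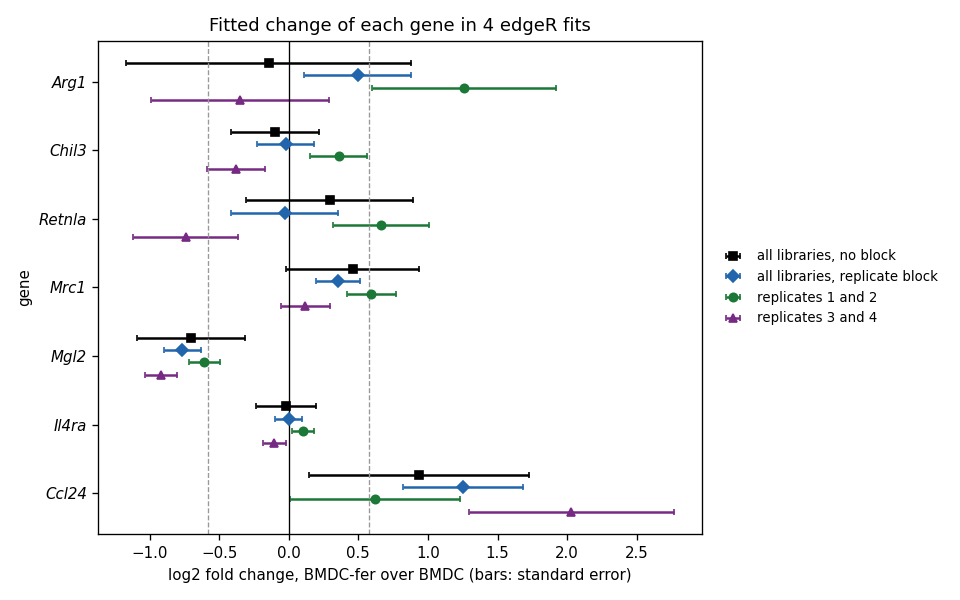
Log2 fold change of BMDC-fer over BMDC for each of the 7 genes (points) with its standard error (bars), as 4 edgeR estimates. They are the fits of all 8 libraries without and with the replicate block, and the effect within each replicate pair. Both pair effects come from a joint fit of all 8 libraries with a shared spread. Dashed lines mark 0.58 in either direction. Mgl2 lies below 0 in each estimate, while Arg1, Chil3, Retnla and Il4ra lie on opposite sides of 0 in the replicate pairs.

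Within replicates 1 and 2, 2 members were called, Mrc1 up and Mgl2 down, beside 22.3% of all genes. Within replicates 3 and 4, 2 were called, Ccl24 up and Mgl2 down, beside 33.0% of all genes. The fitted direction was shared by both replicate pairs for 3 of the 7 members, Mgl2, Mrc1 and Ccl24. The effect was then compared between the pairs by an interaction term, as the effect in replicates 3 and 4 minus that in replicates 1 and 2. Without the block, 0 of the 7 passed an adjusted p of 0.05 (2 had an unadjusted p under 0.05 in edgeR), beside 37.8% of all genes. With the replicate number kept as a block, which was added once the values were known, 4 of 7 passed, beside 42.0% of all genes. That share of members is near the background. The differences were -1.72 ± 0.17 for Arg1 (adjusted p = 0.00019), -0.76 ± 0.19 for Chil3 (adjusted p = 0.0117), -1.33 ± 0.42 for Retnla (adjusted p = 0.0334) and -0.49 ± 0.17 for Mrc1 (adjusted p = 0.0471). For Mgl2 the difference was -0.31 ± 0.15 (adjusted p = 0.139). The adjusted p was 0.129 for Il4ra and 0.0549 for Ccl24, whose fitted difference ran the other way, at 1.36 ± 0.49.

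The levels of the untreated cells already lay apart between the replicate pairs for most members. These differences are given as sizes, without a test, because the pairs were drawn from the same libraries. Arg1 was the extreme case, higher in BMDC replicates 3 and 4 by 3.65 ± 0.72 on the log2 scale, and only 0.597% of all tested genes lay as far apart. Chil3 was higher in these replicates by 1.09 ± 0.21 and Il4ra by 0.68 ± 0.08. The value was -2.57 ± 0.73 for Ccl24, -1.13 ± 0.18 for Mrc1, -0.95 ± 0.11 for Mgl2 and -0.80 ± 0.36 for Retnla, each of them lower in replicates 3 and 4. For these 6 members other than Arg1, between 2.43% and 36.3% of all tested genes lay as far apart. The members thus fell into a set that was higher in replicates 3 and 4 (Il4ra, Arg1, Chil3) and a set that was higher in replicates 1 and 2 (Retnla, Ccl24, Mrc1, Mgl2). For each of the 7 members this difference was larger in size than the pooled log2 fold change of BMDC-fer over BMDC, and the sizes were closest for Mgl2 (-0.95 against -0.71).

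Levels of different genes were compared per length, as mean CPM per kb of exon. In BMDC the order was Mgl2 (403 ± 149; SD, n = 4), Chil3 (230.2 ± 97.6), Arg1 (128 ± 127), Mrc1 (39.0 ± 18.1), Il4ra (37.8 ± 10.2), Retnla (18.9 ± 7.03) and Ccl24 (1.94 ± 2.12). Among neighbours in this order, Il4ra against Retnla and Retnla against Ccl24 differed beyond their SD ranges, and the other neighbours did not. In BMDC-fer the order of the means was the same, from Mgl2 (247 ± 122) and Chil3 (215 ± 53.7) down to Ccl24 (3.72 ± 2.78), and the SD ranges of all neighbours overlapped. Library by library, Mgl2 was highest in replicates 1 and 2 of both groups, Chil3 in replicate 3 of both groups and BMDC replicate 4, and Arg1 in BMDC-fer replicate 4, at 214 CPM per kb.

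The pathway upstream of the members was examined with 18 IL-4 and IL-13 receptor and signalling genes, Il4ra included, of which 15 were tested. None rose and 3 fell, with a median log2 fold change of -0.23, and the same 3 fell with the replicate block. For this and the following lists, the shares over all tested genes were 3.47% that rose and 5.91% that fell without the block, and 4.85% and 8.13% with it. Jak2, a kinase of cytokine receptors, fell from 407 to 99.7 mean CPM (log2 -2.03 ± 0.20, edgeR adjusted p = 0.00207). Il13ra1, which forms the type II receptor together with IL-4Rα, fell by 0.85 ± 0.23 on the log2 scale (adjusted p = 0.0451), and Stat3 fell by 0.59 ± 0.14 (adjusted p = 0.0313). Other genes of the list were not called with or without the block, among them Jak1 (-0.10, edgeR adjusted p = 0.574 without it), Jak3 (-0.31, 0.129), Tyk2 (-0.39, 0.209) and Il2rg (0.27, 0.33). Jak2, Il13ra1, Stat3 and Cish, a feedback inhibitor that was not called (-0.55 ± 0.17, adjusted p = 0.0663), were lower in all 4 BMDC-fer than in all 4 BMDC libraries. Stat6 itself, the factor of this pathway, lay on the other side without overlap, at 165 to 186 CPM in BMDC and 193 to 235 CPM in BMDC-fer (0.29 ± 0.11, adjusted p = 0.111, not called). The highest value was that of Socs1, a feedback inhibitor of JAK signalling (0.99 ± 0.31, adjusted p = 0.0696). The cytokine gene Il4 averaged 0.835 CPM in BMDC against 1.06 CPM with cargo, with overlapping groups, and was not called (0.336 ± 0.275, edgeR adjusted p = 0.441). Il13, Il13ra2 and Irs1 did not pass the filter.

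Of 20 transcription and chromatin regulators of alternative activation, 2 rose and 2 fell (median 0.25), and 3 rose and 2 fell with the replicate block. Batf, an AP-1 family factor, rose by 0.94 ± 0.22 on the log2 scale (edgeR adjusted p = 0.029). Ppargc1b, a coactivator that drives oxidative metabolism, rose by 0.68 ± 0.18 (adjusted p = 0.0465), a call that the block did not keep (adjusted p = 0.0526). With the block Myc (0.92, adjusted p = 0.0216) and Bhlhe41 (1.20, adjusted p = 0.0227) were called instead. Bhlhe40 fell by 1.51 ± 0.22 (adjusted p = 0.00666). Irf4, a factor needed for IL-4 responses and for Mgl2-expressing dendritic cells, fell by 1.42 ± 0.29 (adjusted p = 0.0193). Irf4 was at 196, 195, 106 and 106 CPM in BMDC replicates 1 to 4 and at 77.0, 63.5, 42.7 and 41.9 CPM in BMDC-fer, lower at each number and higher in replicates 1 and 2 of both groups, as was Mgl2. This pattern is not particular to Irf4, since Ccl17 and Cd209a showed it too. Whether Irf4 had a part in the values of Mgl2 was not tested. The extremes of the list were Klf4 (-1.54 ± 0.47, adjusted p = 0.067) and Maf (1.10 ± 0.71, adjusted p = 0.33), neither of which passed.

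Among 32 other alternative activation genes, 26 were tested, of which 4 rose and 3 fell (median -0.07). Those that rose were the scavenger receptor Msr1 (1.16 ± 0.14, edgeR adjusted p = 0.00344), the growth factor Igf1 (1.16 ± 0.18, adjusted p = 0.00726), the ribonuclease Ear2 (1.08 ± 0.25, adjusted p = 0.0287) and the β-glucan receptor Clec7a (1.06 ± 0.20, adjusted p = 0.0138). Those that fell were the lipoxygenase Alox15 (-3.16 ± 0.40, adjusted p = 0.00384), the adhesion molecule Cdh1 (-2.33 ± 0.40, adjusted p = 0.0107) and the chemokine Ccl22 (-2.12 ± 0.57, adjusted p = 0.0454). With the replicate block the counts were 6 up and 6 down.

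In arginine and polyamine metabolism, the pathway of Arg1, 14 genes were tested with Arg1 among them. Srm, which makes spermidine, rose (1.02 ± 0.23, edgeR adjusted p = 0.0268), and Slc7a1, an arginine transporter, fell (-1.14 ± 0.27, adjusted p = 0.0296). With the replicate block Srm kept its call (adjusted p = 0.00513) and Slc7a1 did not (adjusted p = 0.065). Among 25 classical activation genes, the counterpart program induced by interferon-γ and bacterial products, 22 were tested, 0 rose and 5 fell (median 0.02), and with the replicate block the counts were 5 up and 5 down. Those that fell were the chemokine Ccl5 (-3.86 ± 0.59, adjusted p = 0.00715), the receptor Gpr18, the co-stimulatory ligands Cd86 and Cd80, and the GTPase Gbp2. Acod1 had the highest value of this list (1.30 ± 0.57, adjusted p = 0.164), and it passed the block (adjusted p = 0.0061).

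**Figure D3:**
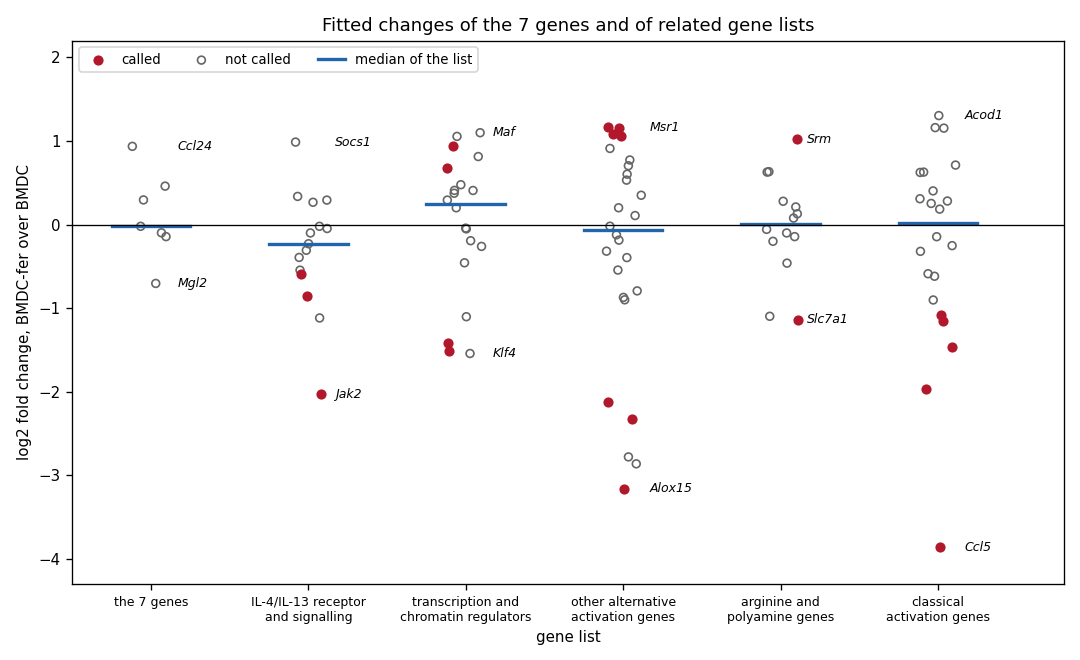
Log2 fold change of BMDC-fer over BMDC for the 7 genes and for the tested genes of 5 related lists. Each point is a gene (filled if called), blue bars are list medians, and the highest and lowest gene of each list is named. The 7 genes hold no called gene, beside 9.38% of all tested genes, and their median lies at -0.02. Called genes lie on both sides of 0 in 3 of the 5 lists.

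Of 16 close paralogs of the members, 5 passed the filter on low counts, and 1 fell, or 3 with the replicate block. Clec10a, which encodes CD301a and is the nearest relative of Mgl2, was at 139.5, 145, 129.6 and 145 CPM in BMDC replicates 1 to 4. In BMDC-fer it was at 91.8, 125, 44.4 and 38.7 CPM, below all BMDC libraries (-0.90 ± 0.35, edgeR adjusted p = 0.12, not called). With the counts of Mgl2 and Clec10a summed to 1 feature, the pooled log2 fold change was -0.73 (adjusted p = 0.225). Retnlg, a relative of Retnla that is known from neutrophils, fell from a mean of 1.36 to 0.0701 CPM (-4.14 ± 0.78, adjusted p = 0.0143), and its level was low next to that of Retnla in each library. Asgr2 had a value of -2.36 ± 0.91 (adjusted p = 0.12), Chil1 of -3.05 ± 0.94 (adjusted p = 0.0677), both called with the block,, and Arg2, the second arginase, of -1.10 ± 0.34 (adjusted p = 0.0675).

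Markers of the cell types such a culture could hold were set beside these values. The 14 dendritic cell markers, led by Cd74 and H2-Ab1, summed to between 8500 and 18800 CPM in BMDC and between 4510 and 9920 CPM in BMDC-fer, with 1 gene up (Sirpa) and 3 down (Flt3, Dpp4 and Ccr7). With the replicate block 12 of the 14 were called, 2 up and 10 down. This sum was lower in BMDC-fer at each replicate number and higher in replicates 1 and 2 than in 3 and 4 of both groups, as was Mgl2. The macrophage markers, led by Csf1r and C1qb, summed to 2890 to 3700 CPM in BMDC and 3450 to 5010 CPM in BMDC-fer, higher at each number, as was Ccl24. Of 11 tested, 0 rose and 1 fell (Adgre1), or 1 up and 1 down with the block. Vsig4, which did not pass the filter on low counts, was at 0 in all BMDC libraries. The neutrophil markers, led by Mmp8 and S100a8, summed to 648 to 1350 CPM in BMDC and 793 to 1480 CPM in BMDC-fer, with 7 of 15 down and 0 up, or 11 down with the replicate block. Their sum ran the other way, higher in BMDC-fer at each replicate number. It was also higher in replicates 3 and 4 of both groups, as were Arg1 and Il4ra.

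Monocyte markers, led by Ccr2 and Ly6c2, summed to 262 to 422 CPM in BMDC and 216 to 376 CPM in BMDC-fer, and 1 of 8 tested fell (Cd177). Eosinophil markers, led by Ear2 and Siglecf, summed to 66.2 to 77.6 CPM and 66.6 to 93.0 CPM. Ear2 rose while Prg2, Alox15 and Siglecf fell (Siglecf without the block alone, adjusted p = 0.074 with it). Prg3, which did not pass the filter on low counts, was at 0 in all BMDC-fer libraries. Mast cell and basophil markers, led by Kit and Gata2, summed to 40.1 to 69.9 CPM in BMDC and 16.4 to 36.2 CPM in BMDC-fer, with 0 of 5 tested called (1 down with the block). Fcer1a and Cma1 were at 0 in all BMDC-fer libraries, but neither passed the filter on low counts, so these zeros cannot show whether their levels changed. T cell markers, led by Lat and Cd3g, summed to 3.66 to 12.3 CPM and 3.97 to 8.45 CPM, Lck fell (2 fell with the block), and Bcl11b and Rag1 were at 0 in every library. What part these markers have in the values of the 7 members was not tested.

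**Figure D4:**
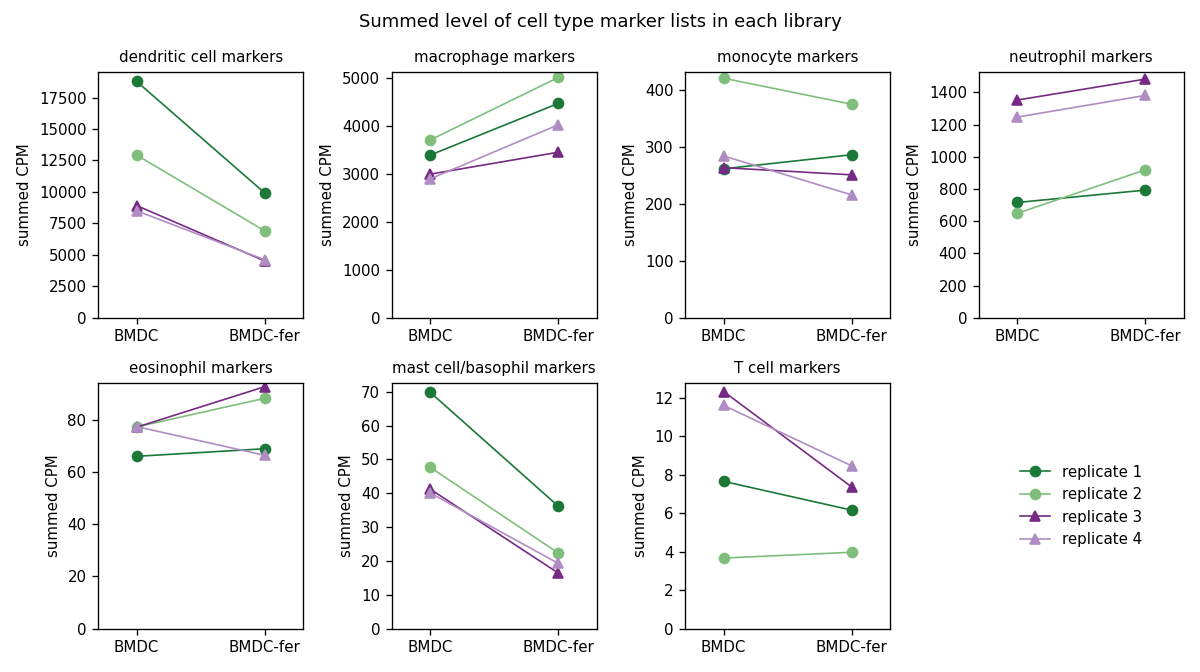
Summed CPM (linear axis from 0) of 7 lists of cell type markers in each library, with lines joining the same replicate number, circles for replicates 1 and 2 and triangles for replicates 3 and 4. Sums of dendritic cell and of mast cell or basophil markers lie lower in BMDC-fer at each replicate number. Sums of macrophage and of neutrophil markers lie higher there, and the neutrophil sum lies highest in replicates 3 and 4. Gene by gene, without the block, 0 of 15 neutrophil markers rose and 7 fell, and 0 of 11 tested macrophage markers rose and 1 fell.

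The genes whose levels ran most like each member were found by Pearson's r of log2(CPM + 0.05) over the 8 libraries. This is a description, since all points share the same libraries and much of the range lies between the replicate pairs. For Il4ra they were Mamdc2 (r = 0.993) and Cyth1 (0.993). For Arg1 they were Pyroxd2 (0.992) and Rcbtb2 (0.988), and for Chil3 they were Aplp2 (0.980) and Uba3 (0.978). Retnla ran with Tmem68 (0.978) and Ifih1 (0.955), and Ccl24 with Pdgfc (0.976) and Ak8 (0.966). Mrc1 was closest to Gas6 (0.994) and Zbp1 (0.991), and Mgl2 to Ptma (0.991) and Spc24 (0.991).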

How the data were processed

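Poly(A)-enriched RNA of 8 libraries was sequenced, 4 of BMDC and 4 of sorted BMDC-fer, grouped by the sample labels. The authors mapped filtered reads with HISAT2 to mm10, counted them per gene with featureCounts and deposited raw counts, which were used here without change. Annotation, strand setting and treatment of multi-mapping reads are not given in the sources used here. Human reads of the cargo were not analysed here.

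Of 55487 identifiers, 55141 had a symbol and gene model in GENCODE M21 (GRCm38, the assembly of mm10). The counts were fitted with edgeR 4.0.16 (R 4.3.3) after TMM scaling and filterByExpr with a minimum count of 10, and p-values were adjusted by Benjamini-Hochberg over 15411 genes. Calls needed an adjusted p of at most 0.05 and a log2 fold change of at least 0.58 in size, as in the study. The scripts were checked on simulated counts. These held no difference between the replicate pairs in BMDC, and the fits with the replicate block were not simulated. The exact permutation test used log2(CPM + 0.05). Total counts lay between 39326672 and 50532209, so that 3 counts, the floor, equal at most 0.0763 CPM.

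Over genes, libraries of the same number in both groups deviated together from their group means, with r of 0.446, 0.355, 0.313 and 0.343 for numbers 1 to 4. The mean r was 0.299 between different numbers of the same replicate pair, close to these values, and -0.331 between replicate pairs. All 4 same-number values were above 0.1, the bar set for pairing, so the shared number was taken as a block, though most of the correlation follows the replicate pairs. The mean of different numbers in the same replicate pair is above this bar too. The check therefore cannot show that libraries of the same number came from the same culture, and no label states it. No libraries of a group agreed within sampling noise (chi-square per gene of 9.06 or more).

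The members, lists, motifs and replicate pairs were chosen with earlier results of these data known. The genes named are the members, the 2 genes most like each, the highest and lowest and up to 4 further called genes of each list, and the 2 highest genes and those at 0 of each marker list. Called genes of marker lists were named after their values were seen, and so were Il4, Il13, Il13ra2, Irs1, Stat6, Cish, Myc, Bhlhe41, Chil4, Asgr2, Chil1, Arg2, Il2rg, Jak1, Jak3, Tyk2, Ccl17 and Cd209a. Alternatives were DESeq2 1.42.0, other scalings and filters, the replicate block, a test against the fold threshold, single replicate pairs, summed paralog counts and each library left out.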

Additional observations from a re-analysis of the deposited data

Results flagged for a closer look

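With the replicate number kept as a block, the change from BMDC to BMDC-fer differed between the replicate pairs for 4 of the 7 members. Of all tested genes 42.0% passed this fit, so the share of members is near the background. For Arg1, the effect in replicates 3 and 4 minus that in replicates 1 and 2 was -1.72 on the log2 scale. It was -0.76 for Chil3, -1.33 for Retnla and -0.49 for Mrc1. Arg1 and Chil3 were higher in BMDC-fer at numbers 1 and 2 and lower at numbers 3 and 4, and Retnla was higher at numbers 1, 2 and 3 and lower at 4. Mrc1 was lower at number 3 alone. Without the block none of the 4 differences passed an adjusted p of 0.05. The labels name no batch that separates the pairs, so a difference between cultures and a difference in handling cannot be told apart. Dixon's test, which sets the gap beside 1 library against the range of its group, flagged 0 of 14 groups of 4. The largest values were those of Ccl24, at 0.731 for BMDC replicate 2 and 0.777 for BMDC-fer replicate 2. With 4 libraries that split into replicate pairs, the test can hardly flag a single library. It therefore cannot show that no library stood apart.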

How the results depend on the processing

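The number of the 7 members called stayed at 0 in each fit that left out 1 library (lowest 0, highest 0) and with DESeq2, other scalings and filters, summed paralog counts and the test against the fold threshold. It was 1 with the replicate block (Mgl2), 2 with only replicates 1 and 2 (Mrc1 and Mgl2) and 2 with only replicates 3 and 4 (Ccl24 and Mgl2). The number of all genes called was 2261 with DESeq2, 225 in the test against the fold threshold, 3062 with only replicates 1 and 2 and 5604 with only replicates 3 and 4. Leaving out a library gave 565 to 1440, with 565 without BMDC-fer replicate 4, 797 without BMDC-fer 2, 867 without BMDC-fer 3, 862 without BMDC 3 and 879 without BMDC 4. The cause was not tested.

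Mgl2 was below 0 and Mrc1 and Ccl24 above 0 in each alternative. With the replicate block, Arg1 turned to 0.50 and Retnla to -0.029, and Il4ra was 0.0023 with no filter. With only replicates 1 and 2, Arg1 was 1.26, Chil3 0.36 and Il4ra 0.11, and with only replicates 3 and 4, Retnla was -0.73. Over the fits without 1 library the log2 fold change ran from -0.61 to 0.34 for Arg1, -0.29 to 0.11 for Chil3, -0.41 to 0.62 for Retnla, -0.14 to 0.11 for Il4ra, 0.10 to 0.78 for Mrc1, -1.01 to -0.51 for Mgl2 and 0.28 to 2.03 for Ccl24. Values turned positive without BMDC replicates 3 or 4 or BMDC-fer replicate 1 for Arg1, Chil3 and Il4ra, and without BMDC-fer replicate 2 for Arg1 and Il4ra, while Retnla turned negative without BMDC-fer replicate 2.

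For the difference of the effect between replicate pairs, 4 members passed with the replicate block, which was added once the values were known, and 0 to 4 passed without 1 library, with 4 without BMDC-fer 1, 2 without BMDC 2 and 1 without each of BMDC 3, BMDC-fer 2 and BMDC-fer 3. The replicate block changed no other call of a member for this difference. In the comparison of BMDC-fer with BMDC it changed the call of Mgl2 alone, as given above. Total-count scaling shifted the median of all genes by -0.09, and other scalings by less.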
